A study of Equus caballus with 2 samples.

Results

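Complement is a cascade of secreted proteins, many of them proteases, that tags cells and debris for removal and can form pores in membranes. It is started by the C1 complex on bound antibody, by lectins on sugars, or by the alternative pathway on any unprotected surface, and all of these routes meet at the cleavage of C3. The liver makes most of the circulating proteins, fibroblasts and other tissue cells make several of them locally, and inhibitors in the fluid and on membranes protect the host's own cells.

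Expression of 9 complement genes, chosen by symbol, was measured in equine endometrial fibroblasts grown with or without TGF-β1, the cytokine that turns fibroblasts into matrix-producing myofibroblasts. The genes were *C1R* and *C1S*, the proteases of the C1 complex, with their inhibitor *SERPING1*. *CFD*, *C3* and *CFB* belong to the alternative pathway, and *CD46*, *CD55* and *CLU* are regulators. Of these 9 symbols, 7 were found among the 21426 genes of both libraries. *CD46* and *CD55*, which protect a cell's own membrane from C3 fragments and from the enzymes that cleave C3, were not found under those symbols. Both are listed in the RefSeq annotation of the horse assembly TB-T2T, but that table does not pair them with the identifiers of the deposited genes. Among the deposited genes 5196 had no symbol, so no level is given for either.

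The cells came from the endometrium of 4 mares in the luteal phase, from abattoir material that was healthy or mildly altered. Control cells were kept in medium with 0.1% BSA from 48 to 72 h of culture, and TGF-β1 cells were given 10 ng/ml human recombinant TGF-β1 in that medium for the same 24 h. Cells of the 4 mares were pooled into 1 droplet library per condition, and the mares were not separated here. With 1 library per condition there are no replicates and no test was made, and library and condition cannot be told apart.

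Of 4384 control barcodes, 3865 had at least 20000 UMIs (unique molecular identifiers, each a captured transcript), at least 3500 genes and less than 4% mitochondrial UMIs. Of 5124 TGF-β1 barcodes, 4513 met the same limits. The kept cells held 210497250 UMIs in control, with a median of 50313 per cell, and 219731144 in TGF-β1, with a median of 43142. The libraries shared 6 barcode sequences among all deposited barcodes and 2 among the kept cells. Levels are given in CPM, the UMIs of a gene per 1000000 UMIs of the kept cells. Each log2 ratio divides the TGF-β1 level by the control level. Unless stated otherwise, intervals are exact 95% intervals that cover counting error only, not differences between animals or between libraries. With 3 counts taken as the limit for a gene with 0 UMIs, its level could be up to 0.0143 CPM in control and 0.0137 CPM in TGF-β1.

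Fibroblast markers were abundant in both libraries. All 6 on the list were found, their summed level was 16993 CPM in control and 16108 CPM in TGF-β1, and *COL1A1* was the most abundant. Of these, 3 were lower and 3 higher with TGF-β1. *VIM* was at 4399 CPM in control and 2240 CPM in TGF-β1, *PDGFRB* at 80.1 and 49.0, and *COL1A1* at 5608 and 6376. Markers of other cell types were mixed, some at or near 0 and some well detected. Of 9 leukocyte markers, all 9 were found and *CD163*, *C1QA*, *C1QB* and *C1QC* had 0 UMIs in both libraries. *PTPRC* had 1 UMI in control and 0 in TGF-β1. The leukocyte list summed to 56.7 CPM in control and 52.9 CPM in TGF-β1, mostly from *CD68*. *CD14* was at 14.0 CPM in control and 9.75 CPM in TGF-β1, in 50.2% and 36.0% of cells. All 4 endothelial markers were found and summed to 0.784 and 0.410 CPM, with *VWF* the most abundant. Of 6 epithelial markers 5 were found, *KRT18* being absent by symbol. *EPCAM* had 1 UMI in control and 3 in TGF-β1, and *CDH1* had 6 and 4. *CLDN4* had 19 and 49 UMIs, a log2 ratio of 1.30 (0.51 to 2.15). The epithelial list nevertheless summed to 134 CPM in control and 11.8 CPM in TGF-β1, through *KRT8* at 114 and 4.48 CPM and *KRT7* at 19.3 and 7.04 CPM. Of 10 cycling markers 9 were found, *MKI67* being absent by symbol, and they summed to 88.3 CPM in control and 57.6 CPM in TGF-β1, with *PCNA* the most abundant. The part of the keratin and cycling differences in the whole-library results was not tested, and values within cycling and *KRT8*-positive cells are given with the members. No cell type that should lack these genes was identified in either library, so the share of cells that free RNA alone would give could not be measured.

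Each of the 7 members found had a lower level in TGF-β1 than in control. *C3* had a mean level below 1 CPM over the libraries, and *CFB* passed that minimum only through control, at 2.00 CPM there and 0.118 CPM in TGF-β1. Of the 6 members at or above the minimum, 5 were more than 2-fold lower, against 3.46% of 12116 genes, and 0 were more than 2-fold higher, against 3.45%. Their median log2 ratio was −2.90, beside −0.01 over the 12116 genes. Because the members were chosen with results of these libraries known, the count and the median describe them and support nothing further.

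Most UMIs of the members came from *CFD* and *CLU*. Summed over the 7 genes, the level was 561 CPM in control and 247 CPM in TGF-β1, a log2 ratio of −1.18 (−1.20 to −1.17). *CLU* held 50.4% of these UMIs in control and 82.2% in TGF-β1, while *CFD* held 39.1% and 14.1%. Without these 2 genes, the other 5 summed to 58.9 CPM in control and 8.99 CPM in TGF-β1, a log2 ratio of −2.71 (−2.78 to −2.64). The mix of transcripts of these 7 genes was thus mainly *CLU* with TGF-β1, and *CLU* with *CFD* in control.

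**Figure D1:**
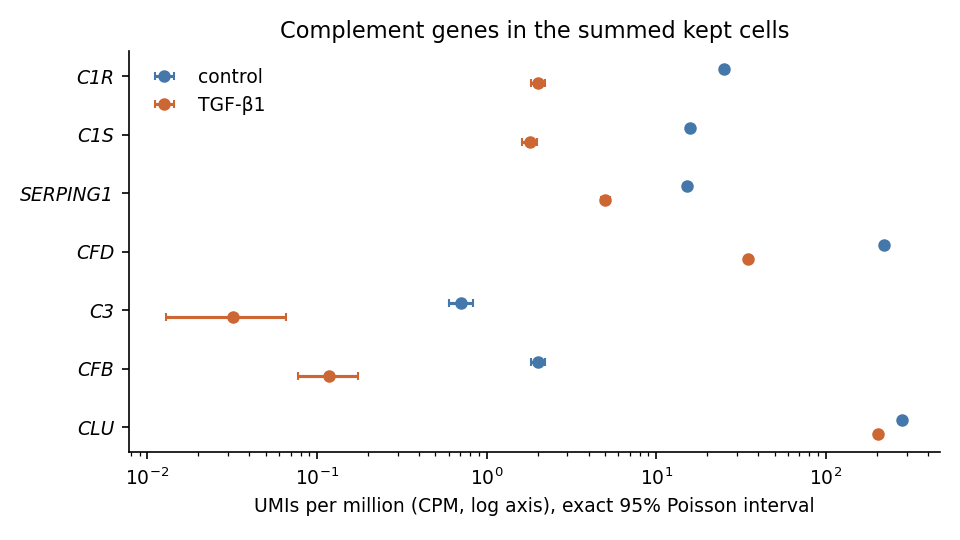
Level of each of the 7 members found, in CPM on a log axis, in the control and TGF-β1 libraries, with exact 95% Poisson intervals. *C3* and *CFB* have the widest separation, and *CLU*, at 283 and 203 CPM, the narrowest.

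*C1R* and *C1S* encode paired proteases, C1r activating C1s once C1 has bound, and C1s then cutting C4 and C2. *C1R* (ENSECAG00000021429) had 5298 UMIs in control and 444 in TGF-β1, or 25.2 CPM (24.5 to 25.9) and 2.02 CPM (1.84 to 2.22). Its log2 ratio of −3.64 was the 9th lowest of the 12116 genes. *C1S* (ENSECAG00000009519) had 3340 UMIs in control and 394 in TGF-β1, and its log2 ratio of −3.15 was the 18th lowest. Both proteases thus lay near the bottom of the ranking, with intervals that do not overlap between the libraries. *SERPING1* (ENSECAG00000010963), which inactivates C1r and C1s, had 3190 UMIs in control and 1105 in TGF-β1. It was 3.01-fold lower and ranked 147th from the lowest.

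The inhibitor thus lay less far below control than the proteases it acts on, and its UMIs outnumbered those of either protease in TGF-β1. In control, there were 1.66 *C1R* UMIs (1.59 to 1.74) for each *SERPING1* UMI, and in TGF-β1 there were 0.402 (0.359 to 0.449). *C1S* UMIs per *SERPING1* UMI were 1.05 in control and 0.357 in TGF-β1. Between the proteases the ratio moved less, with 1.59 *C1R* UMIs (1.52 to 1.66) per *C1S* UMI in control and 1.13 (0.982 to 1.29) in TGF-β1. These are ratios of 3′ UMI counts within a library, not of protein or of molecules corrected for capture, and the comparison is of each ratio between the libraries.

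*CFD* encodes factor D, the protease that cuts factor B once it is bound to C3b, and so completes the alternative-pathway enzyme. *CFD* (ENSECAG00000036123) had 46213 UMIs in control and 7683 in TGF-β1, a log2 ratio of −2.65 (−2.69 to −2.62) that was the 33rd lowest. *CFB* (ENSECAG00000011854), the factor B that it cuts, had 422 UMIs in control and 26 in TGF-β1. Its log2 ratio was −4.08 (−4.71 to −3.51), which rests on few UMIs in TGF-β1. *C3* (ENSECAG00000057145), on which all routes act, had 149 UMIs in control and 7 in TGF-β1. The corresponding levels were 0.708 CPM (0.599 to 0.831) and 0.0319 CPM (0.0128 to 0.0656), a log2 ratio of −4.47 (−5.81 to −3.40). The alternative pathway was thus represented by abundant *CFD* and scarce *CFB* and *C3*, each lower with TGF-β1. There were 109.5 *CFD* UMIs for each *CFB* UMI in control and 295.5 in TGF-β1.

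*CLU* encodes clusterin, an extracellular chaperone that also blocks assembly of the membrane pore. *CLU* (ENSECAG00000007010) had 59577 UMIs in control and 44651 in TGF-β1, a log2 ratio of −0.48 (−0.50 to −0.46). It was 1.39-fold lower, and 12.3% of the 12116 genes had a lower ratio. Of the 7 members found, it was the only one less than 2-fold lower. *CFD* UMIs per *CLU* UMI were 0.776 in control and 0.172 in TGF-β1.

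Shares of cells were compared after each cell was thinned at random to 20000 UMIs, so that cells of unequal depth could be set side by side, and the share without thinning is given beside each. In control, 31.0% (29.6 to 32.5) of cells held *C1R*, and in TGF-β1 3.48% (2.96 to 4.06), or 53.6% and 8.53% without thinning. The share with *C1S* was 23.0% in control and 3.52% in TGF-β1, or 41.9% and 7.95% without thinning. Detection of either protease was thus uncommon with TGF-β1. That with *SERPING1* was 23.6% in control and 9.42% (8.58 to 10.3) in TGF-β1, or 44.2% and 19.3% without thinning. In control the shares with *C1S* and with *SERPING1* were nearly equal, whereas in TGF-β1 the share with *SERPING1* was the higher.

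For *CFD* the share was 44.5% (43.0 to 46.1) in control and 15.4% (14.3 to 16.4) in TGF-β1, or 58.9% and 23.1% without thinning. *CFB* was detected in 145 control cells and 10 TGF-β1 cells, 3.75% (3.17 to 4.40) and 0.222% (0.106 to 0.407), or 7.94% and 0.487% without thinning. *C3* was detected in 42 control cells and 2 TGF-β1 cells, 1.09% (0.784 to 1.47) and 0.0443% (0.00537 to 0.160), or 1.94% and 0.155% without thinning. The TGF-β1 share of *C3* lay close to that of a single UMI, and no size of change is read from it. *CLU* reached 97.9% in control and 95.5% in TGF-β1, or 99.9% and 99.4% without thinning, so nearly every cell of both libraries held it.

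**Figure D2:**
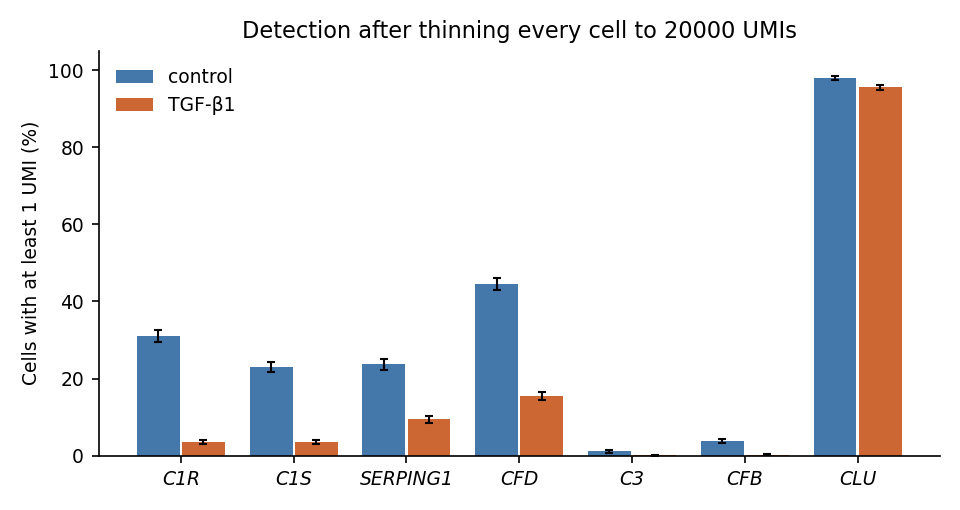
Percent of cells with a UMI of each of the 7 members found, after thinning to 20000 UMIs per cell, in 3865 control and 4513 TGF-β1 cells, with exact 95% binomial intervals. *CLU* is near the top of the scale in both libraries, and each other gene was detected in a smaller share of TGF-β1 cells.

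The lower levels divide into fewer cells with a UMI and fewer UMIs in those cells. For *C1R* the log2 ratio of the thinned level, −3.84, was the sum of −3.16 from the share of cells and −0.68 from the UMIs per positive cell, which averaged 1.71 in control and 1.07 in TGF-β1. For *SERPING1* the parts were −1.33 and −0.30. For *CFD* they were more even, −1.54 from the share and −1.26 from the UMIs per positive cell, which averaged 11.6 in control and 4.86 in TGF-β1. *CLU* differed almost wholly in UMIs per positive cell, 5.91 in control and 4.31 in TGF-β1, with parts of −0.04 and −0.46. Positive cells held at most 1.71 UMIs on average of *C1R*, *C1S*, *SERPING1* or *CFB*, and at such counts a lower level per cell also lowers the share detected.

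*CFD* was spread unevenly over cells, which came from mares that were not separated. In control, the median cell held 0 *CFD* UMIs after thinning, 12.3% of cells held at least 10, and the highest cell held 269. The 10% of control cells with the most *CFD*, 387 cells, held 77.4% of its UMIs. In TGF-β1 1.86% of cells held at least 10 *CFD* UMIs, and 452 cells held 92.8% of the total. A Poisson spread at the same means would give detection in 99.4% of control cells and 52.6% of TGF-β1 cells. *CLU* was spread far more evenly, the top 10% of cells holding 24.2% of its UMIs in either library. The variance of *CFD* was 50.8 times its mean in control and 27.8 times in TGF-β1, against 2.53 and 1.84 for *CLU*.

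Cells also differed in how many of the 7 genes they held. A thinned cell held on average 2.25 (2.21 to 2.29) in control and 1.28 (1.25 to 1.31) in TGF-β1, or 3.08 and 1.59 without thinning. These intervals treat each gene in each cell as an independent draw with the same share, so they are not exact for the mean. Leaving *CLU* aside, the averages were 1.27 and 0.320 of the other 6. None of those 6 was detected in 1131 control cells (29.3%) and in 3266 TGF-β1 cells (72.4%). At least 4 of the 7 genes were detected in 586 control cells (15.2%) and in 16 TGF-β1 cells (0.355%). Cells with at least 4 of the 7 genes were thus a minority in control and rare with TGF-β1.

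Members were found together in the same cells more often than their separate shares would give. The expected numbers treat each library as a single population, although it pools cells of 4 mares, and differences between mares were not tested. In control, *C1R* and *C1S* were detected together in 421 cells, against 276 from the product of their shares, a ratio of 1.53 (1.38 to 1.68). *C1S* was detected in 35.1% of control cells with *C1R* and in 17.6% of those without. The ratio was 1.45 (1.29 to 1.62) for *C1S* with *SERPING1* and 1.33 (1.20 to 1.47) for *C1R* with *SERPING1*. Proteases and inhibitor were thus detected in overlapping cells. *CFD* was also found with each of them more often than its share would give, with ratios of 1.32 for *SERPING1*, 1.28 for *C1S* and 1.27 for *C1R*. For *CFD* with *CFB*, enzyme and substrate, the ratio of 1.12 had an interval of 0.873 to 1.40, and an excess was not detectable at this depth.

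Of the 14 control pairs without *CLU* that had at least 5 cells expected, all 14 had ratios above 1, from 1.05 to 1.97, and 9 had intervals above 1. Pairs of other genes were not counted, so these counts describe the members and do not set them apart from other genes. For *C1R* with *CFB*, among the 9, the interval reached 1 within clusters (0.989 to 1.67) and within quartiles of UMIs (0.998 to 1.68). Pairs with *CLU*, which nearly every cell held, had ratios from 0.997 to 1.01. In TGF-β1 only 6 pairs without *CLU* had enough cells, with ratios from 1.14 to 1.69, and 3 had intervals above 1. Among the 3, *CFD* had a ratio of 1.62 (1.15 to 2.21) with *C1R* and 1.35 (1.08 to 1.66) with *SERPING1*. For *SERPING1* with *CFD*, the interval reached 1 within clusters (0.996 to 1.53). *C1R* and *C1S* were detected together in 8 TGF-β1 cells against 5.53, a ratio of 1.45 (0.624 to 2.85), so an excess was not detectable at this depth. Without thinning the ratio was 1.60 in TGF-β1, and no interval is given for it. With cells thinned to 10000 UMIs this ratio was 2.98, from fewer than 5 expected cells. *C1R* and *SERPING1* were detected together in 25 TGF-β1 cells, a ratio of 1.69 (1.09 to 2.50). For *C1R* and *C1S* in control, the ratio within the 8 clusters described further on was 1.48 (1.34 to 1.62), and within quartiles of UMIs per cell its interval was 1.36 to 1.66.

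**Figure D3:**
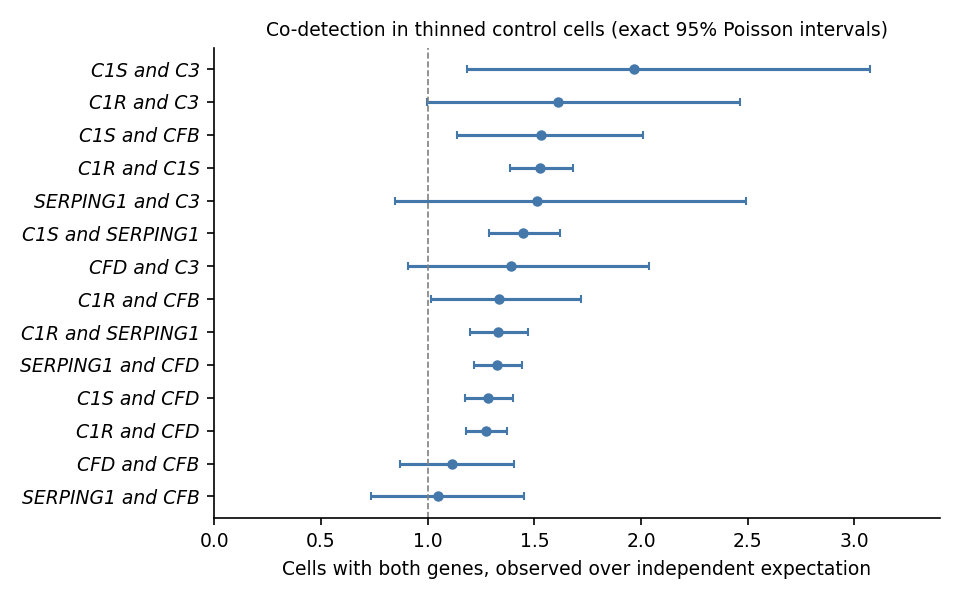
Control cells in which both genes of a pair were detected after thinning, as a ratio to the number their separate shares would give, with 95% intervals. Only pairs without *CLU* that had enough cells expected are shown, and *C1R* with *C1S* lies at 1.53.

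In control, the C1 genes were detected more often where *C1R* had more UMIs. From cells with 0 *C1R* UMIs through those with 1, with 2 and with at least 3, the share with *C1S* was 17.6%, 27.7%, 40.1% and 54.9%. The share with *SERPING1* over the same classes was 20.1%, 26.7%, 35.7% and 42.6%. That with *CFD* was 39.0%, 51.3%, 55.9% and 77.0%, while *CLU* lay between 97.1% and 98.5%. Cells with more *C1R* thus more often held its partner, its inhibitor and factor D. Their median depth before thinning was lower, from 51662.5 UMIs at 0 *C1R* UMIs to 42987 at 3 or more.

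The ratios also differed with the depth of the cell. Cells of each library were split into quartiles by UMIs, and *CFD* in the lowest quartile stood at 487 CPM in control and 53.9 CPM in TGF-β1, a log2 ratio of −3.18. In the highest quartile it stood at 143 and 35.5 CPM, a log2 ratio of −2.01. *C1R* likewise went from −4.29 in the lowest to −3.38 in the highest quartile, with control levels of 38.8 and 20.8 CPM. Cells with fewer UMIs thus held a larger fraction of *C1R* and *CFD* in control, and *C1R*, *C1S*, *SERPING1*, *CFD* and *CLU* were lower with TGF-β1 in every quartile. *CLU* ratios ran from −0.59 to −0.39.

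Cycling cells held less *C1R*, *C1S*, *SERPING1* and *CFD* than the whole library in control. In 103 control cells with at least 3 cycling markers, *C1R* stood at 12.3 CPM, and in such TGF-β1 cells at 1.14 CPM, a log2 ratio of −3.43 (−4.69 to −2.39). *SERPING1* stood at 7.76 and 4.12 CPM in them, a log2 ratio of −0.91 (−1.61 to −0.24). *C1S* stood at 7.05 and 2.56 CPM, and its log2 ratio of −1.46 (−2.33 to −0.66) was nearer 0 than in the whole libraries. *CFD* stood at 84.3 and 18.6 CPM, a log2 ratio of −2.18. In all other cells the ratios were −3.64 for *C1R*, −3.19 for *C1S*, −1.61 for *SERPING1* and −2.66 for *CFD*, close to those of the whole libraries.

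Cells were grouped into 8 clusters from 1993 variable genes, with complement genes kept out of the grouping, although genes that vary with them were not. The libraries were aligned by canonical correlation integration before grouping, a step that brings their cells together. Each cluster held cells of both libraries, which after this step is not a finding about the cells. Among members with UMIs in the control cells of every cluster, *CFD* differed the most across clusters. In control it was at 24.6 CPM in cluster 3, led by *NRN1*, *SPP1* and *MATK*, with *KRT7* and *KRT8* among its leading genes, and at 621 CPM in cluster 7, led by *CA4*, *MGAT4C*, *GDF15* and *KRT1*. Cluster 4, led by *COL4A3*, *DACH1* and *FREM1*, had 528 CPM, and thinned detection of *CFD* there was 67.3%, against 20.5% in cluster 3. *CFD* was thus detected in every cluster, in shares of cells that differed widely. The mares were not separated, and the part of differences between them in the cluster levels was not tested.

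The other members followed orders of their own. In control, *C1R* was at 55.2 CPM in cluster 5, which *MMP9* and *CDC42EP2* led, and at 10.2 CPM in cluster 6, where all 9 cycling markers found were more than 2-fold higher than in the rest. *SERPING1* was at 22.3 CPM in cluster 4 and 7.15 CPM in cluster 6. *CLU* was at 446 CPM in cluster 7 and 188 CPM in cluster 3. Of the 8 clusters in control, the cycling cluster was thus lowest for *C1R*, *C1S* and *SERPING1*, and cluster 3 for *CFD* and *CLU*.

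*C1R*, *C1S*, *SERPING1*, *CFD* and *CLU* were lower with TGF-β1 in each of the 8 clusters. The log2 ratio of *C1R* ran from −4.14 in cluster 2 to −2.57 in cluster 6, and that of *C1S* from −4.03 in cluster 5 to −1.76 in cluster 6. *CFD* ran from −3.52 in cluster 2 to −1.39 in cluster 6. Ratios of these genes were thus nearest 0 in the cycling cluster. *SERPING1* ran from −1.94 to −0.90 and was more than 2-fold lower in 7 of the 8 clusters, and *CLU*, from −0.72 to −0.37, in 0 of 8. *CFB* had enough UMIs for a ratio in 3 clusters, from −4.76 to −3.11, and *C3* in none. With finer clusters, 1 small cluster had higher *CFD* and *SERPING1* in TGF-β1, at log2 ratios of 3.65 and 1.39, from 19 control and 55 TGF-β1 cells.

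**Figure D4:**
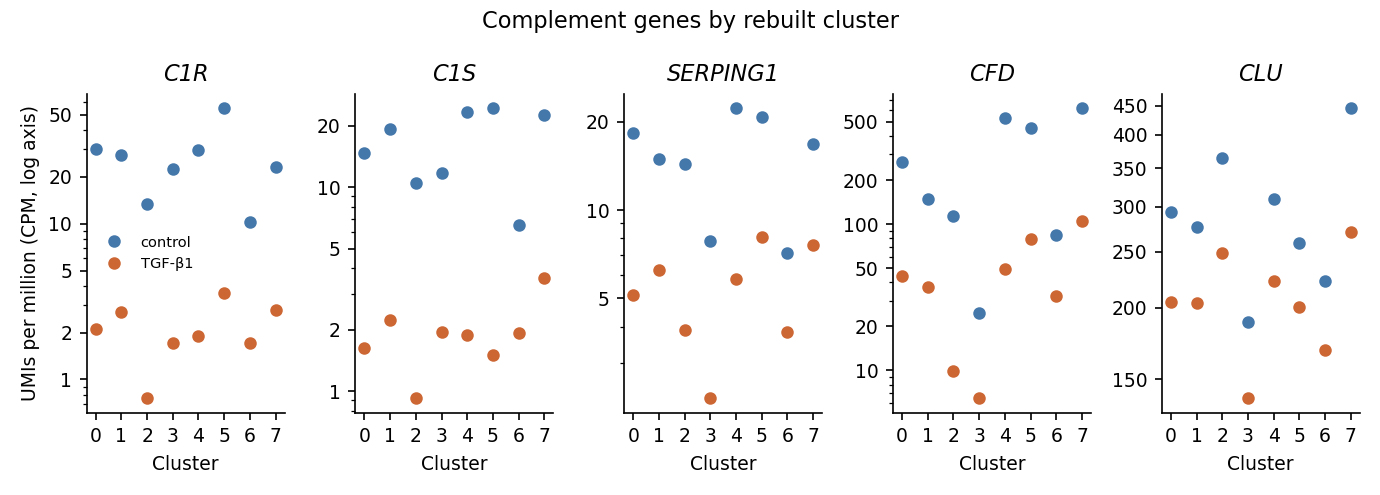
Levels of 5 complement genes in CPM, on log axes that differ between panels, in the control and TGF-β1 cells of each of the 8 clusters. Each control point lies above the TGF-β1 point of its cluster, and control *CFD* runs from 24.6 to 621 CPM.

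Cells marked by other genes differed in their complement transcripts. In control, 180 cells with *VCAM1*, an adhesion molecule, had *CFD* at 666 CPM and the remaining cells at 239 CPM, a log2 difference of 1.48 (1.42 to 1.54). *C3* in them was at 3.33 CPM against 0.66, a log2 difference of 2.33 (1.28 to 3.26), and *CFB* was at 6.39 against 2.13. As *C3* was detected in 3.33% of these 180 cells, its level rests on few cells. *VCAM1*-positive cells thus held more of the alternative-pathway genes, and *C1R*, *C1S* and *SERPING1* were higher in them as well, by 0.89, 0.82 and 1.09. In 986 control cells with *KRT8*, an intermediate-filament gene, thinned *CFD* was at 138 CPM against 300 without, whereas *C1R* was at 30.6 against 25.2. *CFD* and *C1R* thus lay on opposite sides in *KRT8*-positive cells. In TGF-β1, *CFD* was at 13.8 CPM in 159 cells with *KRT8* and 38.2 CPM in those without, so it was lower than in control in both classes.

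In TGF-β1, 1031 cells with *AREG*, an EGF-receptor ligand, had *CFD* at 11.7 CPM against 44.9 in the remaining cells. *CLU* differed by −0.17 on the log2 scale. The differences of *C1R* (−0.28), *C1S* (−0.39), *SERPING1* (−0.07) and *CFB* (1.76) had intervals that hold 0. In 1788 TGF-β1 cells with *IGFBP3*, a carrier of insulin-like growth factors, *C1S* differed by −0.57 (−1.08 to −0.08) on the log2 scale. *SERPING1* differed by −0.31 (−0.59 to −0.04), *CFD* by −0.14 (−0.24 to −0.03) and *CLU* by 0.15. For *C1R* (−0.47) and *CFB* (0.61) the intervals held 0. These classes were called in thinned cells of a single library, which share its RNA, and the differences were not tested.

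Among the control cells richest in *CFD*, most other members were more abundant, with *CFB* undecided at this depth. In 271 control cells with at least 20 thinned *CFD* UMIs, thinned *C1R* was at 78.8 CPM against 22.6 in the remaining cells, a log2 difference of 1.80. *SERPING1* was at 43.5 against 14.6 CPM, a difference of 1.58, and *C1S* at 36.3 against 14.9, a difference of 1.28. *C3* differed by 2.11 (1.17 to 2.98), *CFB* by 0.73 (−0.02 to 1.40) and *CLU* by 0.47. The classical-pathway genes were thus higher in *CFD*-rich control cells by a wider margin than clusterin.

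Other complement genes were read from a list of 54, of which 43 were found, and 8 of these had 0 UMIs in both libraries, among them the C1q genes *C1QA*, *C1QB* and *C1QC*. Transcripts of the recognition subunit that carries C1r and C1s were thus not detectable at this depth. Of 17 genes with at least 1 CPM, 11 were lower and 6 higher, 4 were more than 2-fold lower and 0 more than 2-fold higher, with a median log2 ratio of −0.29. Over the 12116 genes, 51.3% were lower, 3.46% more than 2-fold. The 4 were *C4BPA* (5.62 CPM in control and 1.34 CPM in TGF-β1), *THBD* (10.7 and 2.57), *C1RL* (4.05 and 1.89) and *CFI* (4.86 and 2.34). *C4BPA*, *THBD* and *CFI* act in the inactivation of C4b and C3b, and *C1RL* resembles *C1R*. Genes on the other side included *C7* of the membrane pore, at 7.83 CPM in control and 8.52 CPM in TGF-β1, and *C1QTNF6*, at 7.27 and 10.1. *CALR*, a chaperone that also binds C1q, was at 449 and 631 CPM. The membrane regulator *CD59* had 1 UMI in control and 5 in TGF-β1. Lower levels were thus not shared by the whole list.

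Genes known to control complement expression, in the interferon, IL-6, C/EBP and NF-κB pathways, were mostly somewhat lower. All 20 on the list were found at 1 CPM or more, 19 were lower and 1 was higher, and their median log2 ratio was −0.51. *IFNGR2*, a subunit of the interferon-γ receptor, was at 19.8 CPM in control and 7.29 CPM in TGF-β1. *CEBPD*, a transcription factor of the acute-phase response, was at 1317 and 527 CPM, and *IRF9*, of the type I interferon response, at 24.1 and 12.0. These 3 were the only regulators on the list more than 2-fold lower. The shares over the 12116 genes were 51.3% lower and 3.46% more than 2-fold lower. *STAT3* differed by −0.50, *CEBPB* by −0.29 and *RELA* by −0.07, while *NFKB2* stood at 26.0 CPM in both libraries. Across 3865 control cells, Pearson correlations of the 20 with members ran from −0.03 to 0.16, which is weak in sparse counts, and their part in the members' levels was not tested.

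For each member detected in at least 5% of control cells, the genes most alike across the 3865 control cells were taken by Pearson's r from 8477 candidates, which left the members out. Between members r was at most 0.28, for *C1R* with *CFD*, above any candidate's r with *C1R*. These cells share a library and its free RNA. *CFD* was most like *EDNRB*, an endothelin receptor, at r = 0.36, followed by *FBLN1* and *SPON2*, secreted matrix proteins. *EDNRB* was at 64.7 CPM in control and 27.5 CPM in TGF-β1, and its r with *CFD* was 0.07 in TGF-β1. Of the candidates, *C1R* and *C1S* were both most like *B2M*, the light chain of MHC class I, at r = 0.26 and 0.19, values too low to read further. *CPXM1*, the next for *C1S*, was at 53.1 CPM in control and 11.6 CPM in TGF-β1. Among the same candidates *SERPING1* was most like *FBLN1*, at 0.21, below its r of 0.25 with *CFD*, and *CLU* most like *EDNRB*, at 0.27.

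Position on the chromosome was compared through the order of protein-coding genes in the TB-T2T annotation. *C1S*, *C1R* and *C1RL* are direct neighbours there, and all were lower with TGF-β1, whereas *LPCAT3* on the far side of *C1S* was higher, with a log2 ratio of 0.39. *C2* and *CFB*, homologous proteases, are also neighbours, and *C2* had 80 UMIs in control and 33 in TGF-β1. *NELFE*, on the far side of *CFB*, differed by −0.20. Beside *SERPING1* lies *UBE2L6*, with a log2 ratio of −1.68, and beside *CFD* lies *MED16*, with −0.29. *SCARA3*, next to *CLU*, differed by −0.48, as *CLU* itself did. Of these 7 neighbours, *LPCAT3* alone was higher with TGF-β1. Over the 12116 genes with at least 1 CPM, 51.3% were lower.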

How the data were processed

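The values are UMI counts from the matrix that the authors deposited for each library. The study's methods name Cell Ranger 7.1.0, and the deposited file headers name 8.0.1. The study's Souporcell step was not repeated, and no doublets were removed. Cells were kept at 20000 UMIs, 3500 genes and under 4% mitochondrial UMIs. Levels are UMIs summed over kept cells per 1000000, and in classes of marked cells they are thinned UMIs per 1000000. Intervals are exact Poisson, binomial or Clopper-Pearson intervals at 95%, except those of the mean number of members per cell. Genes counted in the background had a mean of at least 1 CPM. Cells were thinned to 20000 UMIs without replacement, with a fixed seed. Clusters were made in R 4.3.3 (Seurat 5.3.0, SeuratObject 5.2.0) after canonical correlation integration of the libraries, at a resolution of 0.5, without complement genes. Other steps used Python 3.11.15, numpy 2.4.6, scipy 1.17.1, pandas 2.3.3 and matplotlib 3.10.9. The log2 ratios with their intervals, the thinning and the co-detection ratio were tested on simulated data, and the other steps were not.

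The named genes are the members, genes of the complement and regulator lists with at least 1 CPM, the 3 genes most alike per member, and cell type markers. Other genes (annotated neighbours, leading genes of clusters, *IL11*, *C2*, *CD59* and the C1q genes) were picked once the values had been seen. The *VCAM1*, *KRT8*, *AREG* and *IGFBP3* classes came from earlier results. Members and lists were chosen with earlier results of these data known. A planned search of promoters for motifs was not run, as no promoter sequences were available. Alternatives tried were other cell limits, CPM minimums, fold thresholds, scalings, thinning depths and cluster settings. No test was made.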

Additional observations from a re-analysis of the deposited data

Results flagged for a closer look

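Barcodes left out by the cell limits were not part of the reported comparisons, and entered only the alternatives with wider cell limits. In the 519 left out of the control library, with a median of 3728 UMIs, 4 members had levels with intervals above the value of the kept control cells. *C1R* was at 34.3 CPM (28.7 to 40.8) against 25.2 in kept cells, and *C1S* was at 28.5 CPM (23.4 to 34.5) against 15.9. *CFD* was at 331 CPM (313 to 350) against 219.5, and *C3* was at 5.28 CPM (3.23 to 8.16), from 20 UMIs in 6 barcodes, against 0.708. Of these UMIs, 14 lay in 3 barcodes. *CFD* was at 62.3 CPM in the 611 barcodes left out of TGF-β1.

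In clusters at a resolution of 0.8, *CFD* and *SERPING1* in 1 cluster differed in the opposite direction to the others. It held 19 control and 55 TGF-β1 cells. *CFD* had 4 UMIs in control and 111 in TGF-β1. Its log2 ratio was 3.65 (2.25 to 5.55), and 4 TGF-β1 cells held 78 of the 111. *SERPING1* had 5 and 29 UMIs, a log2 ratio of 1.39 (0.00 to 3.12). *CLU* was lower with TGF-β1 there, as in the other clusters, with a log2 ratio of −0.38, and *C1R* and *C1S* had too few UMIs for a ratio. *IL11* was at 3666 CPM in its control cells and 4531 CPM in its TGF-β1 cells. The difference between this cluster and the others was not tested.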

How the results depend on the processing

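Over other scalings and cell limits, the members' log2 ratios had 56 alternative values. Of these 53 lay within the counting interval of the reported value, 3 moved and 0 changed sign. *C1R* ran from −3.75 to −3.62, *CFD* from −2.80 to −2.63 and *CLU* from −0.50 to −0.46. Scaling moved the median of all genes by at most 0.02.

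With a minimum of 10 CPM, 3 of 4 members were more than 2-fold lower (2.13% of 7658 genes), and the median was −2.12, since fewer genes pass. The median was −3.03 with the mean of per-cell CPM; the cause was not tested. With 10000 UMIs per cell the mean number of members per cell was 1.75 in control and 1.02 in TGF-β1, and without thinning 3.08 and 1.59, as more UMIs detect more genes. The ratio of *C1R* with *C1S* was 1.71 in control and 2.98 in TGF-β1 at 10000 UMIs, the latter from fewer than 5 expected cells. Without thinning it was 1.32 in control and 1.60 in TGF-β1. The cause was not tested. At a cluster resolution of 0.8, the highest log2 ratios over clusters were 3.65 for *CFD* and 1.39 for *SERPING1*, both in 1 small cluster and opposite in sign to the reported values; the cause was not tested.

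No paired analysis was made, because the deposited counts used here do not assign cells to mares and hold no reads from which to separate them. Depth limits *C3* and *CFB* in TGF-β1, with 7 and 26 UMIs.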

Other observations

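Barcodes under the UMI minimum split by mitochondrial share in their *CFD*. In control, 276 such barcodes with a low mitochondrial share had *CFD* at 775 CPM (728 to 825), and 205 with a high share had 126 CPM. In TGF-β1 the levels were 169 CPM (149 to 192) in 165 barcodes and 10.9 CPM in 438. *CFB* had 0 UMIs in the barcodes left out of TGF-β1. The upper limit of its level there, 0.827 CPM, lay above the 0.118 CPM of kept cells, so no difference is read from it.

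Among 104 control cells with at least 20 *IL11* UMIs, thinned *C1R* was at 12.0 CPM against 27.0 in the remaining cells, a log2 difference of −1.17 (−1.80 to −0.60). *C1S* differed by −0.65 (−1.33 to −0.04), *SERPING1* by −0.31 (−0.90 to 0.23), *CFD* by −0.59 and *CLU* by 0.38. In 2736 such TGF-β1 cells *C1R* differed by −0.24 (−0.70 to 0.22), *C1S* by 0.23 and *SERPING1* by 0.22, all with intervals that hold 0, *CFD* by −0.20 and *CLU* by 0.23. *IL11* was chosen after its values were seen.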
